A study of Mus musculus with 8 samples.

Results

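The Adgrf subfamily of adhesion G protein-coupled receptors is described here by the 4 genes of its cluster on chromosome 17, the rows of the expression table that match the symbols Adgrf1, Adgrf2, Adgrf4 and Adgrf5, out of 54532 genes listed. The subfamily was selected on the strain differences of its members in these same corneas, so their differences between strains are given as a description without a test. All 4 members were among the 25402 genes with a mean value of at least 0, the genes tested. The samples were 4 naive corneas of the inbred albino strain BALB/cN and 4 naive corneas of the inbred black strain C57BL/6N. Only male mice of each strain were used for RNA sequencing, and no allele or agent other than the strain was involved. The labels do not say whether the 4 corneas of a strain came from separate animals. The p-values thus set strain differences against a spread between samples that may be technical. Values are the regularized log (rlog) values deposited by the authors, on a log2 scale and normalized for library size, and the rlog transformation shrinks a gene towards its own mean, more so at few reads. Read counts were recovered from the rlog values, with 36696886 to 41144046 reads per BALB/cN cornea and 29674498 to 36974918 per C57BL/6N cornea, and a low count carries its counting error. BALB/cN replicates 1 and 4 stood apart by high lens, pigment cell and vessel transcripts, and BALB/cN replicate 2 and C57BL/6N replicates 3 and 4 by few stromal transcripts, so differences are also given without each of these sets, an alternative chosen after seeing the data.

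Adhesion G protein-coupled receptors carry a long extracellular part in front of 7 membrane-spanning helices, joined by a GAIN domain that in many members cuts itself. The stretch behind the cut can act as a tethered agonist, and signals pass on through heterotrimeric G proteins. Adgrf1 (Gpr110) is a receptor for the lipid synaptamide, Adgrf4 (Gpr115) is known from squamous epithelia and enamel-forming cells, and Adgrf2 (Gpr111) is its close neighbour in the genome. Adgrf5 (Gpr116) is known from vascular endothelium and from lung alveolar cells, where it limits the surfactant pool. Of the ligands reported for Adgrf5, Fndc4 differed by 0.13 on the rlog scale (limma, Benjamini-Hochberg adjusted p = 0.72), and the surfactant protein gene Sftpd was listed at 0 in all corneas.

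In GRCm38, the 4 members lie together on chromosome 17 within 0.80 Mb. Adgrf4 (ENSMUSG00000023918, chr17:42656891-42692284, minus strand) and Adgrf2 (ENSMUSG00000057899, chr17:42708936-42742179, minus strand) are 16.7 kb apart. Adgrf1 (ENSMUSG00000041293, chr17:43270329-43324737, plus strand) and Adgrf5 (ENSMUSG00000056492, chr17:43360451-43459557, plus strand) are 35.7 kb apart, and 528 kb separate the first pair from the second. No member shared a stretch of at least 200 bases at 95% identity or more with a transcript of another gene in the GENCODE annotation.

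The promoter windows of the 3 chromosome 17 members with an entry in RefSeq (GRCm38.p6, 250 bases before to 50 after the start) are shown because these genes of 1 cluster had unlike levels and strain differences. Capitals mark the AP-1 letters TGANTCA and the GC box letters GGGCGG, searched on both strands.
Adgrf4, chr17:42692235-42692534, minus strand: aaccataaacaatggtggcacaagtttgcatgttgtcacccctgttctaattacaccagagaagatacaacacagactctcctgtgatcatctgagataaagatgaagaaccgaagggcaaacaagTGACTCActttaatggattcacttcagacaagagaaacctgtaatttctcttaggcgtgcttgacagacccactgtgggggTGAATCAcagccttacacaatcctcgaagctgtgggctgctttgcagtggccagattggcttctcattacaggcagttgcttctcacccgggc
Adgrf1, chr17:43270097-43270396, plus strand: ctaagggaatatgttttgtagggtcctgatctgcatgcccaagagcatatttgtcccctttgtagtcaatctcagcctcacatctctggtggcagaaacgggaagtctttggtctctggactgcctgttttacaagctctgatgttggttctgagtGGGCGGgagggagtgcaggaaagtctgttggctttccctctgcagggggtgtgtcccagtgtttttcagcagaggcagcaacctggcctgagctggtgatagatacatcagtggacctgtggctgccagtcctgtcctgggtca
Adgrf5, first of 2 annotated starts, chr17:43360181-43360480, plus strand: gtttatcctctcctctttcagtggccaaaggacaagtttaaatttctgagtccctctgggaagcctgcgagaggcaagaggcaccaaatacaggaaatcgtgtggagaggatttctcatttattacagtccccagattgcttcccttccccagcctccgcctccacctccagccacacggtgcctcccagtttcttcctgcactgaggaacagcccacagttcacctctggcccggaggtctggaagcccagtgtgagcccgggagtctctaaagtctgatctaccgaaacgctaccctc
The Adgrf4 window held 2 matches to TGANTCA, at positions 127 and 208 counted from the 5′ end of the window, and 7.81% of all 32851 promoter windows held at least 1. The Adgrf1 window held 1 match to GGGCGG, at position 157, which 35.7% of all windows held. The letters CACCC were found 3 times in the Adgrf4 window and 1 time in the Adgrf1 window, against 57.5% of all windows with a match, and 1 of the Adgrf4 matches overlaps the second AP-1 match. The Adgrf5 window shown, and that of its second start, held none of these letters, and TATAAA, present in 13.6% of all windows, was in none of the 4. These matches describe letters only and show no binding.

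The members spanned a wide range of levels in the cornea. Compared as RPKM (recovered reads per kilobase of exon, scaled to the total of recovered reads of each cornea), the order in C57BL/6N was Adgrf1, Adgrf4, Adgrf2 and Adgrf5. The means there were 27.0 ± 2.84 for Adgrf1, 7.82 ± 0.666 for Adgrf4, 2.43 ± 0.0714 for Adgrf2 and 0.223 ± 0.0407 for Adgrf5 (SD, n = 4 each). No adjacent pair in this order overlapped between corneas. In BALB/cN the order of the means was the same, with 21.3 ± 2.45 for Adgrf1, 1.86 ± 0.200 for Adgrf4, 0.583 ± 0.183 for Adgrf2 and 0.318 ± 0.392 for Adgrf5 (SD, n = 4 each). There Adgrf5 overlapped with Adgrf2, so these neighbours in the order were not separated beyond the spread between corneas.

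Among 29 adhesion receptor genes (the 4 members and 25 others), ranked by mean rlog value over the 8 corneas less log2 of the exon length in kilobases, Adgrf1 was second, behind Celsr1, a cadherin receptor of planar cell polarity. Adgrf4 ranked 7, Adgrf2 ranked 12 and Adgrf5 ranked 16. On reads per kilobase, Adgrf1 was above 91.9% of the 22353 genes with recovered reads and a known exon length, Adgrf4 above 66.9%, Adgrf2 above 44.1% and Adgrf5 above 19.9%.

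**Figure D1:**
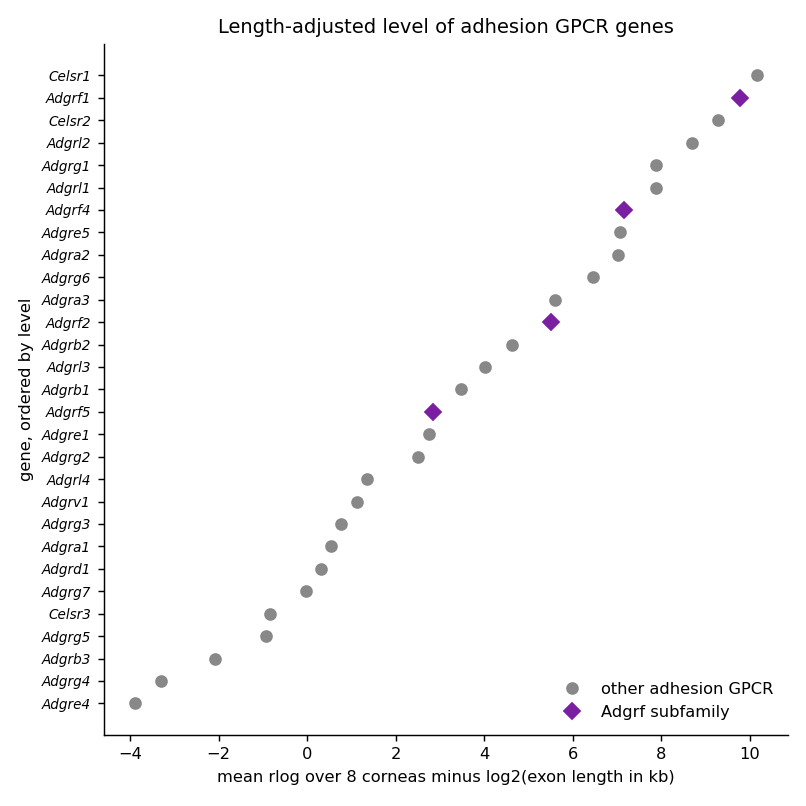
Length-adjusted level of 29 adhesion receptor genes. The x axis is the mean rlog value over 8 corneas minus log2 of the exon length in kilobases, the y axis the genes ordered by that level. Diamonds are 4 Adgrf genes and circles the 25 others, and Adgrf1 is second from the top at 9.77 while Adgrf5 is in the middle at 2.84.

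Adgrf4 had 225, 268, 195 and 209 recovered reads in the 4 BALB/cN corneas and 858, 787, 779 and 878 in the 4 C57BL/6N corneas. On the rlog scale these were 8.0, 8.18, 7.96 and 8.05 against 9.49, 9.37, 9.61 and 9.55. Every C57BL/6N cornea was above every BALB/cN cornea, and corneas of a strain lay close to each other. The rlog difference, BALB/cN minus C57BL/6N, was -1.46, from means of 8.05 ± 0.0940 and 9.51 ± 0.102 (SD, n = 4 each). In normalized reads the means were 203.3 ± 22.0 and 894 ± 84.6, 4.40 times as many in C57BL/6N. In these bulk samples, fewer cells of a type and less RNA per cell cannot be told apart.

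Adgrf2, the next gene along the chromosome, gave a similar picture at a lower level. It had 70, 115, 65 and 53 reads in BALB/cN and 281, 293, 247 and 284 in C57BL/6N, or rlog values of 6.54, 6.91, 6.56 and 6.45 against 7.80, 7.82, 7.88 and 7.85. The strains did not overlap, and BALB/cN replicate 2 was the highest of its strain. The rlog difference was -1.23 (6.61 ± 0.202 against 7.84 ± 0.0339, SD, n = 4 each), and normalized reads were 68.3 ± 21.9 and 298 ± 11.2, 4.37 times as many in C57BL/6N. The rlog difference was smaller than that of Adgrf4 while the ratios of reads were alike.

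Adgrf1, the most abundant member, differed less. It had 2936, 3906, 3194 and 2857 reads in BALB/cN and 3416, 3522, 3196 and 4282 in C57BL/6N, with rlog values of 11.40, 11.73, 11.59 and 11.51 against 11.75, 11.76, 11.91 and 12.04. The highest BALB/cN cornea lay just below the lowest C57BL/6N cornea. The rlog difference was -0.31 (11.56 ± 0.138 against 11.87 ± 0.137, SD, n = 4 each), and normalized reads were 1.33 times as many in C57BL/6N (2926 ± 381 and 3893 ± 497).

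Of the 4 members, 3 did not overlap between strains, against 18.3% of all genes tested, and 2 (Adgrf4 and Adgrf2) had a limma adjusted p-value of 0.01 or less, both lower in BALB/cN, against 5.74% of all genes tested in either direction and 2.91% lower in BALB/cN. As the members were selected on this contrast, these calls are no test of them, and nothing is read from these counts. Under an empirical null limma called no gene at all. Without BALB/cN replicates 1 and 4 the rlog differences were -1.44 for Adgrf4, -1.11 for Adgrf2 and -0.21 for Adgrf1, and without the 3 corneas poor in stroma they were -1.43, -1.30 and -0.26, so the order and direction of these members were as with all corneas.

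**Figure D2:**
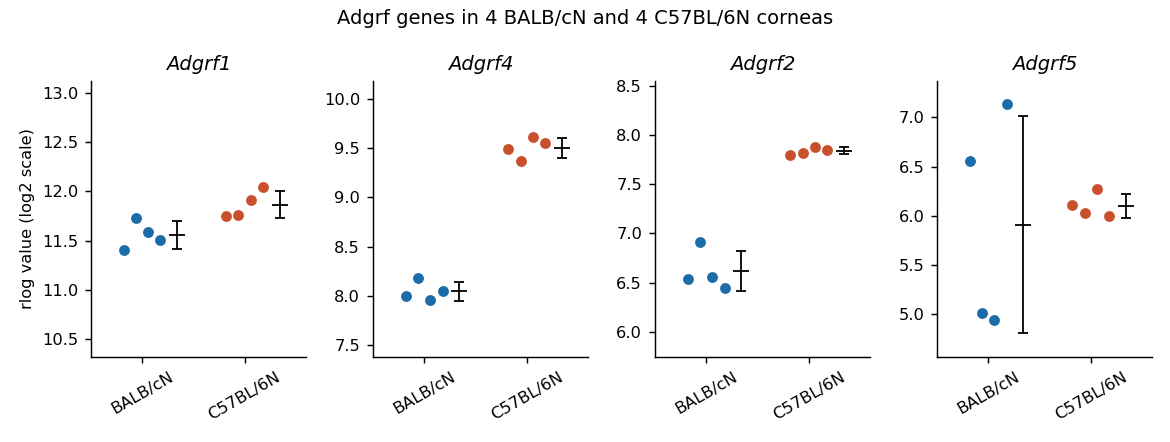
The rlog value (log2 scale) of each Adgrf gene in each cornea, 1 panel per gene with the same height in rlog units, blue for BALB/cN and orange for C57BL/6N. Each point is 1 cornea and the bar is the mean with its SD (n = 4); Adgrf4 and Adgrf2 sit in 2 separate bands, while the 4 BALB/cN values of Adgrf5 fall on both sides of the C57BL/6N values.

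The ratio of Adgrf4 to Adgrf2 in reads per kilobase was 3.35 ± 0.713 in BALB/cN and 3.22 ± 0.226 in C57BL/6N (SD, n = 4 each), with ranges of 2.50 to 4.23 and 2.88 to 3.38 that overlapped. The 2 genes thus stood in about the same proportion in each strain. The ratio of Adgrf1 to Adgrf4 was 11.5 ± 1.2 in BALB/cN and 3.46 ± 0.321 in C57BL/6N, with no overlap. Adgrf1 and Adgrf4 lie within the same cluster but kept no common proportion.

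**Figure D3:**
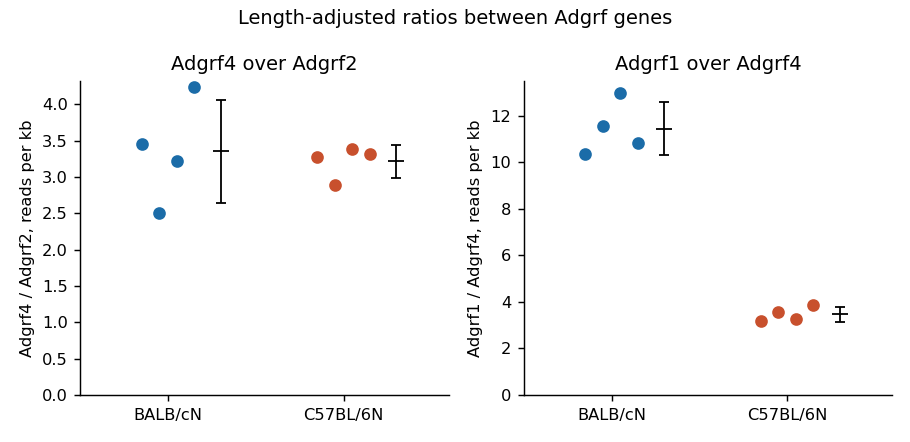
Ratio of Adgrf4 to Adgrf2 (left) and of Adgrf1 to Adgrf4 (right) in reads per kilobase of exon, on axes that start at 0. Each point is 1 cornea, and bars are the mean with its SD (n = 4 per strain); the left ratio is near 3 in each strain (3.35 and 3.22), and the right one is 11.5 in BALB/cN and 3.46 in C57BL/6N.

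Adgrf5 varied among the BALB/cN corneas more than between the strains. It had 158, 4, 1 and 272 reads in BALB/cN replicates 1 to 4 and 74, 67, 74 and 60 in the C57BL/6N corneas. The rlog values were 6.56, 5.01, 4.94 and 7.13 against 6.11, 6.03, 6.27 and 6.00. BALB/cN replicates 1 and 4 were above all C57BL/6N corneas and replicates 2 and 3 below all of them. The difference of the means, -0.19 (5.91 ± 1.11 against 6.10 ± 0.119, SD, n = 4 each), was smaller than the BALB/cN SD, and in normalized reads the means took the opposite order (101 ± 125 in BALB/cN and 74.8 ± 13.4 in C57BL/6N).

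BALB/cN replicates 1 and 4 also carried the most transcripts of vessels, pigment cells and lens. Flt1, a VEGF receptor of blood endothelium, had 269 and 636 reads there, 1 and 0 in BALB/cN replicates 2 and 3, and 8 to 30 in C57BL/6N. Cdh5, the endothelial cadherin, had 197 and 478 reads in replicates 1 and 4, 6 and 12 in replicates 2 and 3, and 3 to 46 in C57BL/6N. Tyr, the melanin synthesis enzyme, had 673 and 1171 reads in replicates 1 and 4, 3 and 0 in replicates 2 and 3, and 15 to 91 in C57BL/6N. Over the list of 8 blood endothelium markers the summed normalized reads ranged from 536 to 2826 in BALB/cN and from 225 to 1725 in C57BL/6N. Without Kdr, which was set apart after its values were seen, the other 7 summed to 694 and 1731 in BALB/cN replicates 1 and 4, 50.7 and 55.5 in replicates 2 and 3, and 36.0 to 153 in C57BL/6N. Emcn, Tek and Cldn5 were at 0 reads in BALB/cN replicates 2 and 3. Their part in the Adgrf5 values was not tested.

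Adgrf5 and these markers did not keep 1 proportion in both strains. Flt1 reads were above those of Adgrf5 in BALB/cN replicates 1 and 4 and below them in all C57BL/6N corneas, where Adgrf5 held at 60 to 74 reads. Without BALB/cN replicates 1 and 4 the rlog difference of Adgrf5 was -1.13, and without the 3 corneas poor in stroma it was 0.14.

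**Figure D4:**
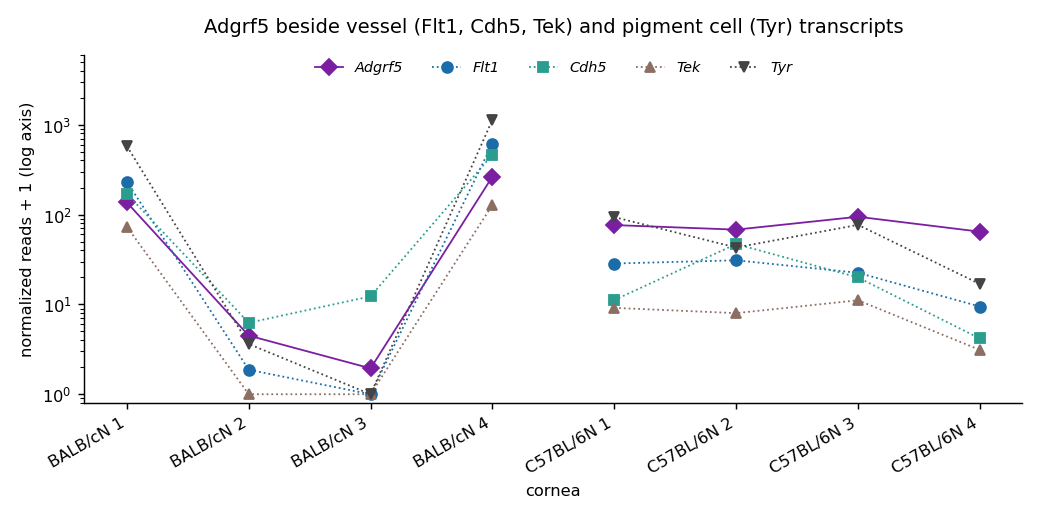
Normalized reads plus 1 (log axis) of Adgrf5 (diamonds, solid line), the vessel genes Flt1, Cdh5 and Tek and the pigment cell gene Tyr in each of the 8 corneas (x axis). All 5 genes are high in BALB/cN replicates 1 and 4 and low in replicates 2 and 3, while in C57BL/6N Adgrf5 stays level and above Flt1 and Tek.

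The corneas also differed in the transcripts of the layers below the epithelium. The summed normalized reads of 7 stromal keratocyte markers were 99471 in BALB/cN replicate 2 and 50278 and 54282 in C57BL/6N replicates 3 and 4, against 305354 to 442077 in the other 5 corneas. The 4 corneal endothelium markers summed to 14841, 12682 and 9977 in these 3 corneas and to 24218 to 33500 in the others. Adgrf1, Adgrf4 and Adgrf2 each had their highest BALB/cN rlog value in replicate 2 and their 2 highest C57BL/6N values in replicates 3 and 4. The 7 corneal epithelium markers summed to their highest values in those same corneas (1956600 in BALB/cN replicate 2, 1918720 and 1912290 in C57BL/6N replicates 3 and 4). Most of this sum came from Krt12, Krt5 and Aldh3a1. The mean rlog value of the 7 was also highest there (16.26, 16.24 and 16.30). Not every marker followed, as Krt14 and Aldh3a1 had their lowest normalized C57BL/6N value in replicate 3. Adgrf5 did not follow the order of Adgrf1, Adgrf4 and Adgrf2, with its highest and its lowest C57BL/6N rlog value in replicates 3 and 4.

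None of the 7 corneal epithelium markers passed the strain test, with a median rlog difference of -0.04 against 0.01 over all genes tested, and all 7 were detected in every cornea. Of 6 conjunctival markers, 4 fell in BALB/cN, namely Krt13 (-2.51), Krt4 (-1.17), Krt19 (-0.97) and Muc4 (-0.48 on the rlog scale), while Muc5ac (2.19, limma adjusted p = 0.022) and Krt8 (0.40, adjusted p = 0.011) missed the threshold. The summed normalized reads of the 6, most of them from Muc4, ranged from 523819 to 773091 in BALB/cN and from 886601 to 1119180 in C57BL/6N. Muc4 alone had means of 629961 in BALB/cN and 970440 in C57BL/6N. Those of the corneal epithelium marker Krt12 were of the same order (857855 and 860433), so the sum cannot be taken as a measure of conjunctiva. Of the 6, Krt13, Krt4, Krt19 and Muc4 were lower in the same strain as Adgrf4 and Adgrf2, and Krt8 and Muc5ac had higher values there. Their part in those differences was not tested. No marker of cornified epidermis (5 genes, median rlog difference -0.30), stromal keratocytes (7 genes, 0.63), corneal endothelium (4 genes, 0.14), blood endothelium (8 genes, 0.49), lymphatic endothelium (4 genes, 0.20), pigment cells (5 genes, 0.75), lens (6 genes, 1.21) or skeletal muscle (4 genes, -0.01) passed the test.

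The neighbours of the cluster on chromosome 17 were then compared with the members, over the window from the 5th tested protein-coding gene before Adgrf4 (9130008F23Rik) to the 5th after Adgrf5 (Cyp39a1). The window holds 29 listed genes, of which 15 besides the members were tested, 12 of them protein-coding. Of the 15, 1 passed the strain test, against 5.74% of all genes tested, and 4 did not overlap between strains (Cenpq, AC121875.1, Cd2ap and Pla2g7), against 18.3% of all genes. Their median rlog difference was 0.01, against 0.01 over all genes tested. The pseudogene AC121875.1 was barely detected (rlog means of 0.44 in BALB/cN and 0.39 in C57BL/6N), so its lack of overlap rests on very few reads.

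The neighbour that passed was Cd2ap, the gene after Adgrf2, which codes for an adaptor linking membrane proteins to actin. It had about 6990, 7097, 6562 and 5898 recovered reads in BALB/cN and 7690, 7982, 6937 and 8358 in C57BL/6N. The corneas of the strains did not overlap once normalized, with rlog means of 12.61 ± 0.0407 and 12.97 ± 0.0693 (SD, n = 4 each). The rlog difference was -0.36 ± 0.0491 (SE, limma adjusted p = 0.0014; exact two-sided permutation p = 0.029, the smallest that 4 against 4 can give). It was below 0 as those of Adgrf4 and Adgrf2 were, and about as large as that of Adgrf1. The call was lost without BALB/cN replicates 1 and 4 (-0.33, adjusted p = 0.036), without the 3 corneas poor in stroma (-0.31, 0.0103), with median centring (-0.43, 0.030), with the replicate block (0.022) and under an empirical null (0.47).

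The other tested protein-coding genes nearest to a member did not pass the test, and Mep1a, between Adgrf5 and Ankrd66, was listed at 0 in all corneas. Opn5, a light-sensing opsin just beyond Adgrf4, was barely detected and differed by 0.01 ± 0.0238 on the rlog scale (SE, limma adjusted p = 0.87, n = 4 per strain). Tnfrsf21, a death receptor between Cd2ap and Adgrf1, had normalized reads of 3162 ± 428 in BALB/cN and 3320 ± 152 in C57BL/6N (SD, n = 4 each), a difference of -0.06 ± 0.0723 on the rlog scale (SE, limma adjusted p = 0.67). Ankrd66, the next tested gene after Adgrf5, was also barely detected and differed by -0.04 ± 0.0434 (SE, limma adjusted p = 0.66). The rlog differences of Opn5 and Ankrd66 are held near 0 by the shrinkage at so few reads, so they do not show how these genes compare between strains. Of the genes farther off, Cenpq (0.34, adjusted p = 0.014) and Pla2g7 (0.32, adjusted p = 0.042), had values above 0 without passing the threshold, as limma gave them.

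**Figure D5:**
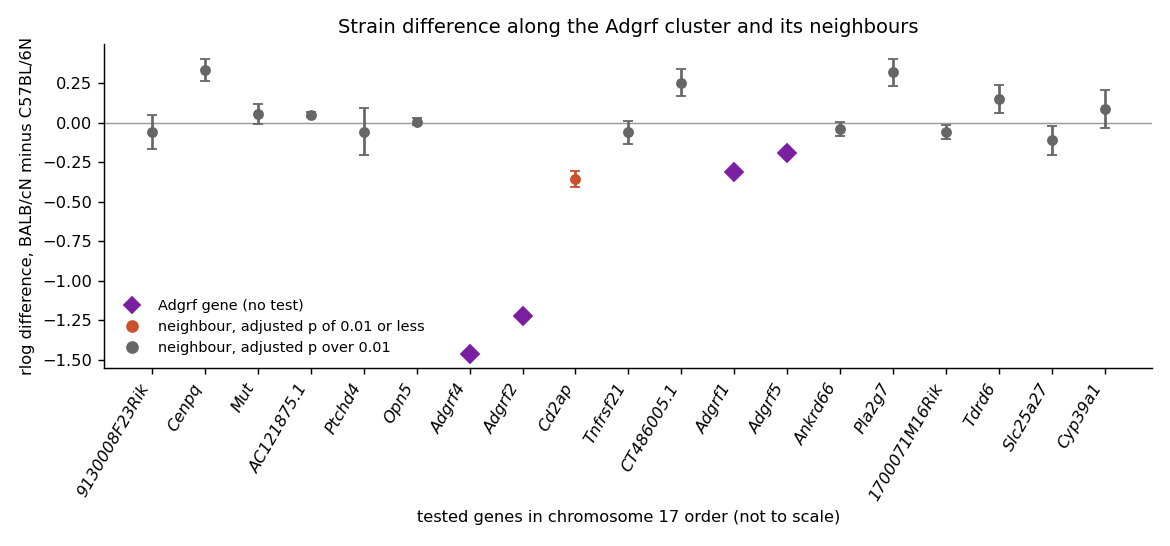
The rlog difference, BALB/cN minus C57BL/6N, of the tested genes of the window in chromosome order (x axis, not to scale). Purple diamonds are Adgrf genes, shown without a test, and circles are neighbours with their SE from limma; Adgrf4 (-1.46) and Adgrf2 (-1.23) stand apart from the neighbours, of which only Cd2ap (-0.36, orange) passed the test.

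The other adhesion receptors were compared over a list of 25 genes. Of the 23 tested, 1 rose and 1 fell in BALB/cN, which is 8.70% against 5.74% of all genes, with a median rlog difference of 0.04. Adgrg1 (Gpr56), a receptor that binds collagen III, fell, with normalized reads of 1009 ± 121 in BALB/cN and 1624 ± 47.5 in C57BL/6N (SD, n = 4 each) and a difference of -0.51 ± 0.0692 (SE, limma adjusted p = 0.0013). Adgrb1 (Bai1), a receptor for phosphatidylserine, rose, with 123 ± 21.9 and 49.9 ± 16.7 normalized reads and a difference of 0.59 ± 0.112 (SE, limma adjusted p = 0.0077). The call of Adgrb1 was lost on leaving out any 1 of BALB/cN replicates 2, 3 and 4 and C57BL/6N replicates 1, 3 and 4 (adjusted p from 0.0243 to 0.0291), either set of corneas named above (0.0357 and 0.106), with median centring (0.026), quantile normalization (0.0341), the replicate block (0.0231) and an empirical null (0.681), with differences from 0.46 to 0.69 over all settings. That of Adgrg1 was lost on leaving out either set (adjusted p = 0.0143 and 0.0164), with the replicate block (0.0181) and under the empirical null (0.462), with differences from -0.58 to -0.41. The 3 highest of the list by length-adjusted level, Celsr1, Celsr2 and Adgrl2, did not pass (rlog differences of 0.02, -0.14 and -0.17, limma adjusted p = 0.89, 0.14 and 0.063).

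Of 16 G protein alpha subunit genes, through which such receptors signal, 15 were tested and Gnat3 was listed at 0. Of the 15, 2 rose in BALB/cN and none fell, which is 13.3% against 5.74% of all genes, with a median rlog difference of 0.08. They were Gnai2, which inhibits adenylyl cyclase (0.27 ± 0.0473, SE, limma adjusted p = 0.0057), and Gna14 of the Gq family (0.51 ± 0.0971, SE, limma adjusted p = 0.0083). Gna14 lost its call on leaving out any 1 cornea (adjusted p from 0.0126 to 0.0253), and Gnai2 on leaving out any 1 but C57BL/6N replicate 2 (adjusted p from 0.014 to 0.0226). With the replicate block, median centring, the empirical null or either set of corneas left out neither was called, with differences over all settings from 0.43 to 0.58 for Gna14 and from 0.19 to 0.30 for Gnai2. The 3 highest by length-adjusted level were Gnai2, Gnas, which stimulates adenylyl cyclase, and Gna15 of the Gq family, and Gnas and Gna15 did not pass (0.26 and 0.07, limma adjusted p = 0.21 and 0.64).

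For the 3 members whose rlog values had an SD over 0.3 across the 8 corneas, the genes of most similar pattern were found by the root mean square difference from the member after centring each gene on its own mean. For Adgrf4 they were Arhgap19, a GTPase-activating protein gene (0.0363 rlog units), Naip1, a sensor of bacterial proteins (0.0554), and Fam84a (0.0974). Arhgap19 had 68.2 normalized reads in BALB/cN and 389.6 in C57BL/6N, and Naip1 had 156.6 and 702. Adgrf2 was 27th in this order, at 0.152. Its ratio of reads between strains was nonetheless close to that of Adgrf4 (4.37 and 4.40 times as many in C57BL/6N). For Adgrf2 they were the homeobox gene Dlx5 (0.0736), the clock gene Arntl (0.0985) and the tropomyosin gene Tpm3 (0.0991). Dlx5 had 157 normalized reads in BALB/cN and 566 in C57BL/6N. Naip1 and Tpm3 have near-identical copies elsewhere in the genome, so their reads are uncertain.

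For Adgrf5 the most similar were Lgi2, a secreted leucine-rich protein (0.142), Tbc1d16, a Rab GTPase-activating protein (0.242), and the scaffold protein gene Iqgap2 (0.258 rlog units). Lgi2 had 133 normalized reads in BALB/cN and 80.6 in C57BL/6N. These orders rest on 8 corneas of 2 strains that share the same libraries. They describe only likeness of rlog pattern across the corneas. Centring removed each gene's own mean but not the rlog shrinkage, which is stronger at few reads, so level still bears on these orders.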

How the data were processed

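The corneas (4 BALB/cN, 4 C57BL/6N) gave strand-specific total RNA libraries, read from both ends for 100 bases. By the study's methods and the submitters' processing notes, the authors trimmed reads, removed ribosomal and transfer RNA, aligned to strain pseudo-genomes of GRCm38 with TopHat2 2.1.1, counted reads on the exons of Ensembl release 94 genes with HTSeq 0.7.1, and transformed the counts with DESeq2 1.30. The values the authors deposited are these rlog values on a log2 scale, and 0 columns were left unused.

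The strain comparison used limma 3.58.1 in R 4.3.3 with a variance trend, for genes whose mean rlog was at least 0, with Benjamini-Hochberg adjustment and a threshold of 0.01. Neighbours also had an exact permutation test, two-sided, in scipy 1.17.1. The deposited files hold no counts. Reads per gene were recovered by inverting the transformation, whose constants were fitted to the mean counts listed in the study's supplementary table, as far as it was read here (1879 genes), for 22366 of the 31314 genes not at 0. In genes left out of that fit, 93.5% of values came within 0.1 of a whole number at means of 100 to 1000 reads, 63.6% at 1000 to 5000 and 23.6% above 5000. The last share is little above what random values would give, so recovered reads are approximate there. Of the 32 member values 29 did, and the largest distance was 0.175. Within a strain every pair of corneas differed beyond counting noise (chi-square per degree of freedom 10.8 to 94.6). Copies were screened with blastn 2.17.0. The limma fit and the recovery of reads were each run on simulated data as a check of the scripts.

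1 listed gene of the subfamily is not reported here. The members and all gene lists were chosen with earlier results of these data known. Named genes were the members, the called neighbours and the tested protein-coding neighbours nearest to a member, the called and the 3 highest genes of each receptor and G protein list, the 3 most similar genes of each member with an SD over 0.3, and the cell type markers. Cenpq, Pla2g7, AC121875.1, and the genes beyond the window were named after their values were seen. Alternatives were no variance trend, no filter, a mean of at least log2(10), median centring, quantile normalization, a replicate block, an empirical null, each cornea left out, recovered reads and an adjusted p-value of 0.05. Leaving out 2 sets of corneas was chosen after seeing the data.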

Additional observations from a re-analysis of the deposited data

Results flagged for a closer look

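Of 40 groups of 4 corneas screened, 3 held a value far from the others by Dixon's gap, and chance flags about 1 in 20 groups. No member of the subfamily was among them. This gap looks for 1 value apart from the rest, so it cannot flag a split such as that of Adgrf5 in BALB/cN (6.56, 5.01, 4.94 and 7.13). Ankrd66, the next tested gene after Adgrf5, had 1 higher cornea in each strain, with an rlog value of 0.62 in BALB/cN replicate 1 against 0.56 in the nearest other (gap 0.993 of the range) and of 0.76 in C57BL/6N replicate 4 against 0.56 (0.995). Ankrd66 was barely detected and its other corneas lay together near 0.56, so these gaps rest on very few reads. Adgrb1 had an rlog value of 6.28 in C57BL/6N replicate 2 against 5.95 in the nearest other cornea of its strain (0.969), and without that cornea its limma adjusted p-value was 0.00395.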

How the results depend on the processing

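The differences of Adgrf1, Adgrf2 and Adgrf4 kept their direction in every alternative run, and leaving out each cornea in turn gave -0.37 to -0.25, -1.32 to -1.17 and -1.50 to -1.43 on the rlog scale. As log2 ratios of recovered reads, without the rlog shrinkage, Adgrf2 was -2.13 and Adgrf4 -2.14. Adgrf5 ran from -0.60 to 0.13 with 1 cornea left out, was 0.43 as a log2 ratio of reads, and was -1.13 without BALB/cN replicates 1 and 4 and 0.14 without the 3 corneas poor in stroma.

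Of all genes tested, 1458 were called (6009 at an unadjusted p under 0.05). The count was 958 with median centring, 554 with the replicate block, 2842 at an adjusted p of 0.05, 447 without BALB/cN replicates 1 and 4, 852 without the corneas poor in stroma, and 953 (without C57BL/6N replicate 4) to 1163 with 1 cornea left out. Under the empirical null limma's p-values gave 0 calls in any list (1725 genes at an unadjusted p under 0.05). Corneas of the same replicate number did not deviate together (correlations of deviations 0.305, -0.530, -0.203 and -0.454), and with the replicate block 0 neighbours, 0 other adhesion receptors and 0 G protein genes were called.

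Among the neighbours, 1 was called in the main comparison, and 1 with any cornea left out, 2 without a variance trend, 3 at an adjusted p of 0.05, and 0 with median centring or without either set of corneas. Among the other adhesion receptors, 2 were called, and 1 to 2 with 1 cornea left out, 1 with median centring or quantile normalization, 4 at an adjusted p of 0.05, and 0 without either set of corneas. Among the G protein genes, 2 were called, and 0 to 1 with 1 cornea left out, 1 without a variance trend, without a filter or with quantile normalization, and 0 with median centring or without either set. The causes were not tested. Few reads limit the low corneas of Adgrf5.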

Other observations

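Further along chromosome 17, past the window compared above, 3 neighbouring genes passed the strain test, all higher in BALB/cN. Rcan2, between the window and Enpp5, was also higher (0.88 ± 0.193 on the rlog scale, SE) but missed the threshold (limma adjusted p = 0.017). These genes and Rcan2 were chosen after their values were seen. Enpp5 (chr17:44078813-44086567), a membrane ectonucleotide phosphodiesterase family gene, had 2565 ± 83.4 normalized reads in BALB/cN and 1035 ± 79.2 in C57BL/6N (SD, n = 4 each), an rlog difference of 0.97 ± 0.0558 (SE, limma adjusted p = 4.8e-06). Enpp4, of the same family, differed by 0.90 ± 0.10 (SE, limma adjusted p = 0.00036), and Clic5, an intracellular chloride channel family gene, by 1.07 ± 0.0824 (SE, limma adjusted p = 3.3e-05). These differences had the opposite sign to those of Adgrf4 and Adgrf2.

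Adgrl4 (Eltd1), the adhesion receptor known from blood endothelium, had 29, 0, 2 and 77 reads in BALB/cN replicates 1 to 4 and 3, 8, 9 and 0 in C57BL/6N. Adgrv1, the giant receptor of the sensory epithelia, had 239, 10, 12 and 329 reads in BALB/cN and 22, 36, 76 and 14 in C57BL/6N. Each was high in the same BALB/cN corneas as Adgrf5 and low in the same ones. Both were named after their values were seen, and neither passed the strain test (limma adjusted p = 0.49 and 0.61).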
